A study of Drosophila melanogaster with 82 samples.

Results

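Messages bound to tagged ribosomes in the germ line of female Drosophila melanogaster were compared between restricted food (DR) and rich food (AL). The 12 arrays whose titles name the germ line, 6 AL pools and 6 DR pools, were taken from the 82 arrays of the series, and each measured 16637 transcripts. Both groups had the genotype +/+; NGT-GAL4/+; UAS-RpL13A-His6FLAG/+, so the tagged ribosomal protein RpL13A was made wherever the NGT-GAL4 driver is active. The females grew up on stock food, then spent 10 days on food with 5% (AL) or 0.5% (DR) yeast extract, and were 13 days old at collection. A pool held 100 flies, so each replicate is a separate pool. Whole flies were homogenised before the FLAG pull-down, and the driver alone defines which cells contributed tagged ribosomes. Flies without the driver or the tag were not analysed here. The label could not be checked against markers, because the gene table used here pairs none of the listed marker genes of germ line or follicle cells with a transcript on the array, nor any of those listed for fat body, muscle, gut, neuron or tubule.

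In the fly ovary a germ line stem cell gives rise to a cyst of connected cells, of which one becomes the oocyte while the rest, the nurse cells, load it with messages and ribosomes. Yeast is the main protein source of laboratory flies, and its supply is known to set the rate of egg production through insulin and TOR signalling. A pull-down of tagged ribosomes reads the messages that are attached to ribosomes, so a level depends both on the amount of a message and on how much of it is being translated. In these bulk samples fewer cells of a type and less RNA per cell cannot be told apart.

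The 6 DR pools were not alike. The median absolute log2 difference of a pool from the mean of the AL pools, taken over all transcripts, was 0.77 in DR pools 1 and 2, 0.66 in pool 3, 0.53 in pool 4, 0.30 in pool 5 and 0.25 in pool 6. Single AL pools differed from the mean of the other 5 AL pools by 0.09 to 0.22. DR pool 6 therefore lay only slightly farther from the AL mean than the most distant AL pool, while DR pools 1 to 3 lay about as far from it as any pool did. Of all transcripts, 46.6% lay within the range of the 6 AL pools in DR pool 6 and 41.0% in DR pool 5, against 13.8% in DR pool 1. The leading axis of variation among the 12 arrays held 78.5% of the variance, and along it DR pool 6 (0.41) lay inside the span of the AL pools (0.10 to 0.42), whereas DR pools 1 to 5 ran from -0.69 to -0.01. On the second axis, with 11.3% of the variance, DR pool 6 (0.40) was the farthest from the AL pools (-0.15 to -0.04). Correlations across transcripts ran from 0.975 to 0.995 among AL pools, from 0.944 to 0.968 between DR pool 6 and the AL pools, and from 0.789 to 0.961 between DR pool 6 and the other DR pools. By this measure DR pool 5, at 0.957 to 0.977 with the AL pools, lay nearer to them than DR pool 6. The median SD of a transcript over the pools was 0.18 in AL and 0.36 in DR (0.28 without DR pool 6), on the log2 scale. Results are given below with all pools and, where they differ, without DR pool 6. That pool was singled out on these same arrays, so larger differences and more calls without it were favoured by the choice.

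**Figure D1:**
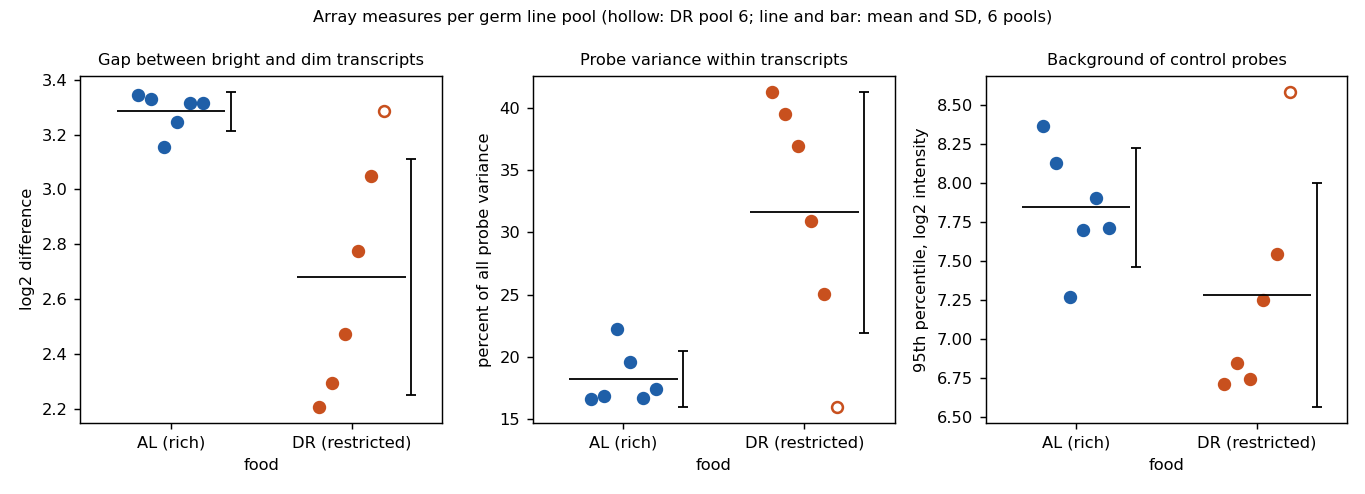
Array measures of the 6 AL (blue) and 6 DR (orange) germ line pools: the log2 gap between bright and dim transcripts, the percentage of probe variance that lies within transcripts, and the 95th percentile of the random-sequence control probes (log2 intensity). Points are pools, the hollow point is DR pool 6, and lines and bars are the mean and SD of 6 pools. DR pools 1 to 5 lie below every AL pool in the gap (2.21 to 3.05 against 3.15 to 3.35), and DR pool 6 (3.29) lies among the AL pools.

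Properties of the arrays moved with the food. The gap in level between bright transcripts (deciles 6 to 8 of mean signal) and dim ones (deciles 1 to 3) was 3.28 ± 0.07 (SD, n = 6) in AL pools and 2.68 ± 0.43 (SD, n = 6) in DR pools on the log2 scale (exact permutation test, two-sided, p = 0.00649, adjusted p = 0.039 over 6 array measures). The DR mean was 2.56 ± 0.35 (SD, n = 5) without DR pool 6 (adjusted p = 0.00649 by the exact test), and when any 1 AL pool was left out the adjusted p lay between 0.0844 and 0.0974. With the deciles set by the AL arrays of the other 6 tissues, the gap was smaller in DR by 0.91 in place of 0.60. The share of probe variance within transcripts, a measure of how unevenly the probes of a transcript respond, was 18.2% ± 2.3 (SD, n = 6) in AL and 31.6% ± 9.7 (SD, n = 6) in DR (exact permutation test, adjusted p = 0.0519), and 34.7% ± 6.7 (SD, n = 5) without DR pool 6 (adjusted p = 0.00649 by the exact test). The 95th percentile of the control probes, which marks the background, was 7.84 ± 0.38 (SD, n = 6) in AL and 7.28 ± 0.72 (SD, n = 6) in DR, which missed the threshold (adjusted p = 0.247 by the exact test). It was 7.02 ± 0.36 (SD, n = 5) in DR with pool 6 left out, and passed (adjusted p = 0.013 by the same exact test). The number in each probe name was taken as the position of the probe along its transcript, which no source used here states. The mean slope of signal per kb of that position was 0.417 ± 0.018 (SD, n = 6) in AL and 0.358 ± 0.094 (SD, n = 6) in DR (exact permutation test, adjusted p = 0.247). The part of these array measures in the changes below was not tested beyond the covariate fits given with them. No measure of RNA quality or of pull-down yield was used here, so the part of either was not tested.

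Restricted food was accompanied by changes in a large share of the translating messages. Of 16637 transcripts 9747 passed the test (limma, adjusted p below 0.05), or 58.6%, with 4185 higher in DR (25.2%) and 5562 lower (33.4%). The median change over all transcripts was -0.02 and the median size of a called change 0.68, both on the log2 scale. Without DR pool 6 the calls numbered 12600 (75.7%), with 6099 higher (36.7%) and 6501 lower (39.1%). Calls of at least 2-fold numbered 728 higher (4.38%) and 908 lower (5.46%), and these counts moved with single pools, to 1872 (11.3%) and 1517 (9.12%) without DR pool 6, 457 and 611 without DR pool 1, 430 and 554 without DR pool 2 and 475 and 687 without DR pool 3. The pools of the 2 foods did not overlap for 2703 transcripts (16.2%), with every DR pool above every AL pool for 1353 (8.13%) and below for 1350 (8.11%). When DR pool 6 was left out there were 7110 such transcripts (42.7%), 3175 above (19.1%) and 3935 below (23.7%), and leaving out AL pool 3 gave 1626 above and 2371 below. With the gap between bright and dim transcripts of each array as a covariate, 2507 transcripts passed as higher and 2077 as lower. The gap itself differs between the foods, so that covariate also takes up part of any effect of food.

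The change depended on the signal of the transcript. In the second decile of mean signal, where transcripts are dim, DR pools 1 to 5 lay above the AL mean by 0.75, 0.69, 0.56, 0.35 and 0.17 on average, and DR pool 6 lay at -0.08. In the seventh decile the same pools lay at -0.50, -0.46, -0.39, -0.25 and -0.11, and DR pool 6 at -0.02. DR pools 1 to 5 thus shared one shape of the curve at different heights, and DR pool 6 was flat. Calls followed that shape. In the second decile 40.2% of transcripts passed as higher and 5.29% as lower, and in the seventh 15.4% passed as higher and 56.6% as lower. All 14 transcripts with a gene name of their own lie in the sixth decile or above, where falls are the more frequent call among all transcripts.

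**Figure D2:**
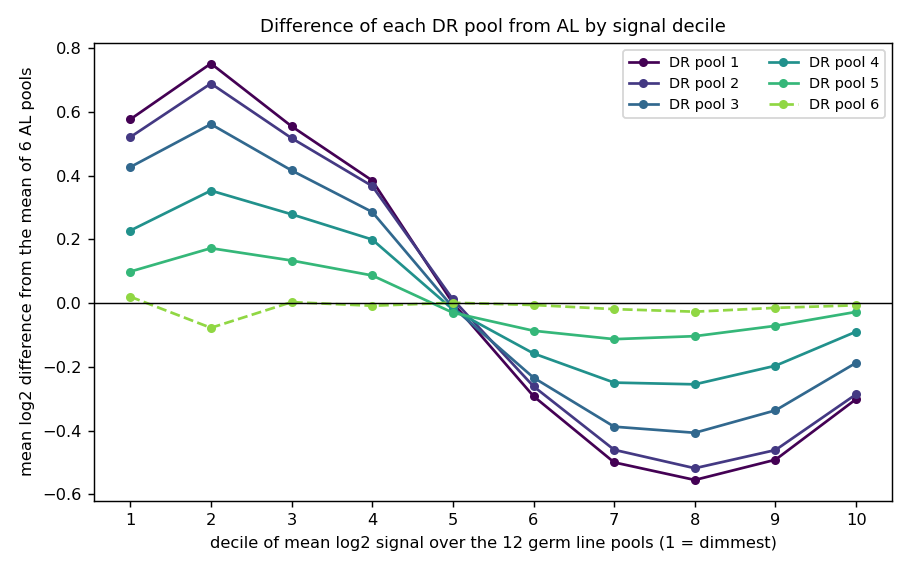
Mean log2 difference of each DR pool from the mean of the 6 AL pools (vertical axis), by decile of mean log2 signal over the 12 germ line pools (horizontal axis, 1 is dimmest). DR pools 1 to 5 lie above 0 in the dim deciles and below it in the bright ones, while DR pool 6 (dashed) stays between -0.08 and 0.02.

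A gene name of its own could be given to 14 transcripts, of which 1 passed as higher in DR, 8 as lower and 5 did not pass. Their median change was -0.31, against -0.02 over all transcripts, and the background share of lower calls was 33.4%. When DR pool 6 was left out, 1 passed as higher and 10 as lower, against 39.1% of all transcripts lower. With cyclic loess scaling, which removes trends with signal from each array, 1 passed as higher and 6 as lower, and the median change was -0.12. With the bright to dim gap as a covariate, LanA (0.75, adjusted p = 0.000121) and Wdr24 (-0.41, adjusted p = 0.0102) were those that passed. Among the 8 lower genes DR pool 6 lay below the AL range in 2 and within it in 6, and DR pool 5 lay within it in 3. Of all transcripts, 46.6% lay within the AL range in DR pool 6 and 41.0% in DR pool 5. The 8 genes were called from these same pools, so positions below the range were favoured by the choice.

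LanA passed as higher and alpha-Spec did not pass, and the difference between them was not tested. LanA encodes a laminin alpha chain, a building block of the basement membrane that surrounds tissues such as the ovarian follicle. Its log2 signal had a lowest, median and highest value of 11.29, 11.37 and 11.55 in the AL pools, and of 11.60, 11.92 and 12.11 in the DR pools. Every DR pool lay above every AL pool, and DR pool 6 was the highest of all. LanA rose 1.42-fold (0.50 ± 0.11 SE, n = 6 per food; adjusted p = 0.00288), with 7 of its 8 probes higher in DR and probe changes from -0.08 to 0.90. The rise was 0.88 with cyclic loess and 0.90 with quantile normalization over all 82 arrays, and the call was missed in the fit on all 82 arrays (adjusted p = 0.0536). The gene alpha-Spec encodes alpha-spectrin, part of the skeleton under the cell membrane and, in germ cells, of the fusome that joins the cells of a cyst. Its AL pools ran from 12.38 through a median of 12.44 to 12.59 and its DR pools from 11.48 through 12.42 to 12.76. DR pools 1 to 3 lay below all AL pools and DR pools 4 to 6 above all of them, and the difference did not pass (-0.16 ± 0.20 SE; adjusted p = 0.476). Its probes ran from -1.01 to 0.48. The change of alpha-Spec was 0.18 with cyclic loess, 0.10 with quantile normalization over all 82 arrays and 0.44 with the gap covariate, and it passed in none of these.

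Of the 4 named genes whose products act in chromatin, 3 passed as lower, and none of the 4 passed with the gap covariate. They lie in the sixth decile (HDAC3) and the tenth, where 48.9% and 34.6% of all transcripts passed as lower. HDAC3, a histone deacetylase, ran from 11.25 through 11.56 to 11.65 in AL and from 10.45 through 10.67 to 11.19 in DR. All 6 DR pools lay below all AL pools, and the fall was 1.66-fold (-0.73 ± 0.14 SE, n = 6 per food; adjusted p = 0.00204). All 8 probes were lower in DR, and the change was -0.45 with cyclic loess (adjusted p = 0.00202) and -0.34 with the gap covariate (adjusted p = 0.0569). His4r encodes the replication-independent copy of histone H4, and near-identical histone genes may share its probes, so its value is uncertain. It ran from 13.60 through 13.77 to 13.81 in AL and from 12.85 through 13.12 to 13.65 in DR. The DR pools lay below the AL pools except for pools 5 and 6, and the change was -0.52 ± 0.15 SE (adjusted p = 0.0108), again with 8 of 8 probes lower. The gene kis, a chromatin remodeller of the CHD family, ran from 13.90 through 14.08 to 14.18 in AL and from 13.21 through 13.63 to 13.99 in DR. Only DR pool 6 lay among its AL pools, and the change was -0.47 ± 0.14 SE (adjusted p = 0.0129), or -0.72 with the later probes of the transcript alone and -0.34 with cyclic loess. SuUR, which slows replication of heterochromatin in polyploid cells, was at 13.00 to 13.24 in AL and 12.59 to 13.32 in DR. DR pools 1 to 4 lay below all AL pools and DR pool 6 above them, and the difference did not pass (-0.26 ± 0.13 SE; adjusted p = 0.0972), although it did without DR pool 5 or DR pool 6 (-0.35 and adjusted p = 0.0114 without pool 6).

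Both mio and Wdr24 encode subunits of the GATOR2 complex, through which amino acid supply is relayed to the growth kinase TORC1, and mio is named for the loss of the oocyte in its mutant. Wdr24 ran from 12.41 through 12.62 to 12.69 in AL and from 12.16 through 12.28 to 12.53 in DR. A single AL pool, pool 5 at 12.41, lay below the other 5, and the highest DR pool was pool 2. Wdr24 fell 1.23-fold (-0.29 ± 0.09 SE, n = 6 per food; adjusted p = 0.0155), but it was at 0.04 with cyclic loess (adjusted p = 0.852) and at -0.06 when all 82 arrays were quantile normalised together (adjusted p = 0.724), and its call was also missed with median polish. For mio the AL pools ran from 12.11 through 12.24 to 12.43 and the DR pools from 11.99 through 12.14 to 12.53. The pools overlapped over most of their range (-0.06 ± 0.11 SE; adjusted p = 0.661), and 2 of its 8 probes lay on the side of that mean change.

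Of the genes of the ubiquitin system, rdx passed as lower and Uba1 did not pass. The gene rdx encodes an adaptor of a cullin-based ubiquitin ligase, and it ran from 14.19 through 14.52 to 14.62 in AL and from 13.89 through 14.13 to 14.36 in DR. The groups overlapped through AL pools 3 and 5 and DR pools 5 and 6. Its change was -0.34 ± 0.12 SE (adjusted p = 0.0269), and the call was lost on leaving out AL pool 1, AL pool 4, AL pool 6, DR pool 2 or DR pool 3, with values from -0.39 to -0.29 over all left-out pools, and with the later probes alone (-0.04, adjusted p = 0.796), quantile normalization over all arrays and the position slope as a covariate. Uba1, the enzyme that activates ubiquitin, ran from 14.02 through 14.06 to 14.09 in AL, and in DR its lowest value was 13.82 and its median 13.90. All its DR pools lay below all AL pools, pool 6 the highest of them, but the difference was small (-0.17 ± 0.07 SE) and missed the threshold (adjusted p = 0.0661). It passed without DR pool 6 (-0.19, adjusted p = 0.0396) and in the fit on all 82 arrays (adjusted p = 0.0184).

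NaPi-III, listed as a sodium and phosphate cotransporter, ran from 13.03 through 13.23 to 13.32 in AL and from 12.44 through 12.68 to 13.06 in DR. DR pool 6, at 13.06, was the one that overlapped the AL pools, and the change was -0.48 ± 0.12 SE (adjusted p = 0.00717), with 8 of 8 probes lower and a value of -0.22 under cyclic loess. Fatp1, a fatty acid transport protein, ran from 12.03 through 12.50 to 12.85 in AL and from 12.16 through 12.70 to 12.95 in DR. Its pools overlapped, with AL pool 5 the lowest of all 12, and the difference did not pass (0.20 ± 0.16 SE; adjusted p = 0.279). The gene fend had the largest fall of the 14. It ran from 12.29 through 12.52 to 12.70 in AL and from 10.62 through 11.36 to 12.56 in DR, where pools 1 to 5 lay below all AL pools and pool 6 at 12.56 lay among them. The fall was 1.97-fold (-0.98 ± 0.28 SE; adjusted p = 0.012), or -1.18 without DR pool 6, -0.60 with cyclic loess and 0.04 with the gap covariate. The gene sle, whose nuclear product was first studied in the brain, ran from 13.79 through 13.92 to 14.04 in AL and from 13.32 through 13.58 to 13.88 in DR. DR pools 5 and 6 lay within the AL range, and the change of -0.32 ± 0.11 SE (adjusted p = 0.0298) lost its call on leaving out AL pool 1, AL pool 2, AL pool 5, DR pool 1, DR pool 2 or DR pool 3 (values from -0.37 to -0.26). It was also lost with cyclic loess (-0.18, adjusted p = 0.0708), in the fit on all 82 arrays (adjusted p = 0.162) and with the position slope as a covariate.

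**Figure D3:**
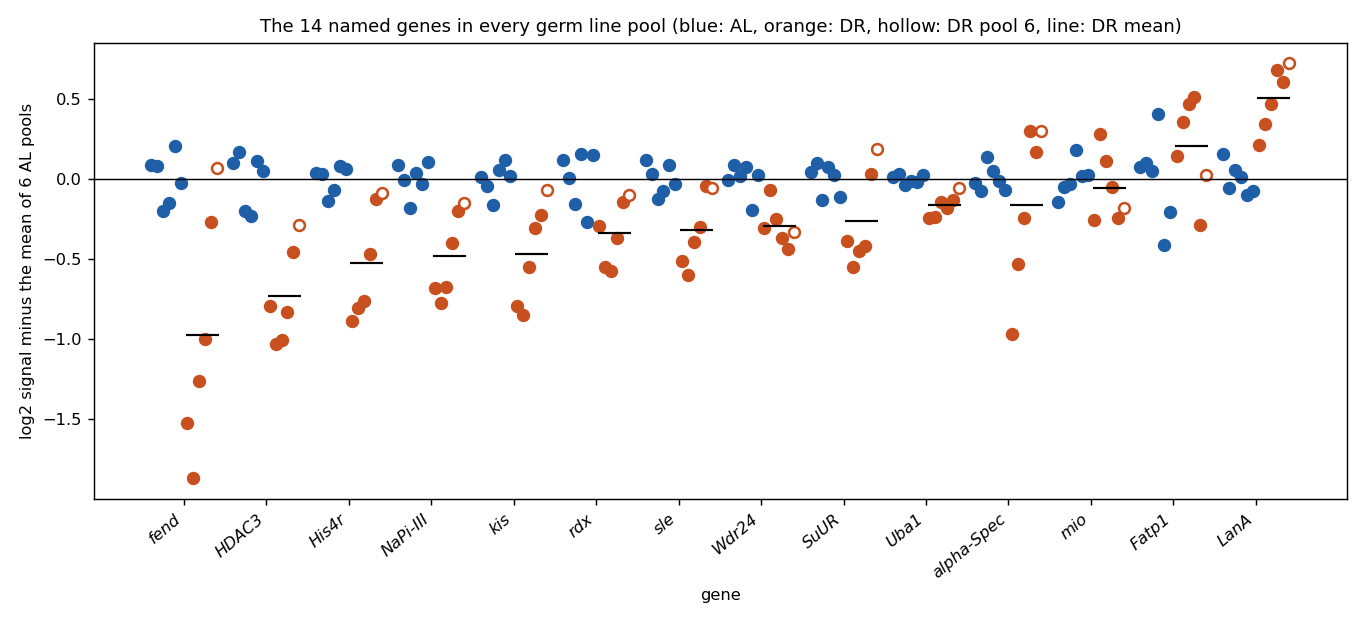
Log2 signal of the 14 named genes in every germ line pool, minus the mean of the 6 AL pools of that gene (vertical axis). Blue points are AL pools, orange points DR pools, hollow points DR pool 6 and lines the DR mean. HDAC3 and Uba1 have every DR pool below every AL pool, LanA has every DR pool above, and for fend, kis, His4r, NaPi-III, sle and rdx DR pool 6 lies among the AL pools.

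A further 28 transcripts are paired with more than 1 gene each, because the gene table lists one message under an upstream and a main reading frame. The value belongs to the message and cannot be split between its reading frames. Of these messages 2 passed as higher in DR, 17 as lower and 9 did not pass, and 60.7% were lower against 33.4% of all transcripts. Their median change was -0.38. The counts were 2 higher and 18 lower without DR pool 6, and with cyclic loess they were 2 and 10 with a median change of -0.08. With the gap covariate 2 passed as higher and 3 as lower (CG42374/Mettl5, CG42455/vnc and CG5116/CG42488). Of the 28, 25 lie in the sixth decile or above, where falls are frequent among all transcripts. DR pools 1 to 4 lay below the AL range for all 17 lower messages, DR pool 5 for 12 of them and DR pool 6 for 6. These messages were called from the same pools, so such positions were favoured by the choice. Of all 16637 transcripts, 7782 lay below the AL range in DR pool 1, 6827 in DR pool 4, 5252 in DR pool 5 and 4761 in DR pool 6.

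Both messages that rose carry reading frames known by CG numbers alone. CG17325/CG42305 had AL pools from 10.15 through 10.24 to 10.51 and DR pools from 11.04 through 11.58 to 11.92. Every DR pool lay above every AL pool, DR pool 6 lowest among them, and the rise was 2.39-fold (1.26 ± 0.14 SE, n = 6 per food; adjusted p = 7.28e-05). CG10570/CG42502 ran from 11.66 through 11.91 to 12.22 in AL and from 12.50 through 12.91 to 13.01 in DR. Its groups did not overlap either, and the rise was 1.86-fold (0.89 ± 0.12 SE; adjusted p = 0.000276). All 8 probes of both messages were higher in DR.

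Factors of DNA upkeep and of RNA synthesis and processing are carried by 7 of the messages, of which 5 passed as lower. Of all 28 messages 60.7% passed as lower. These 7 lie in deciles 4 to 10, where 21.6% to 59.5% of all transcripts did so. Sws1/Rad1 carries Rad1, a subunit of the DNA damage checkpoint clamp, and ran from 9.70 through 10.56 to 10.81 in AL and from 8.64 through 8.79 to 9.94 in DR. The highest DR pool, pool 6, overlapped AL pool 3, and the fall was 2.51-fold (-1.33 ± 0.26 SE; adjusted p = 0.00229). CG7950/Rpp14a, with a subunit of RNase P, fell 2.39-fold (-1.26 ± 0.25 SE; adjusted p = 0.00214). Tfb5/CG31917, with a subunit of the transcription and repair factor TFIIH, fell 2.15-fold (-1.10 ± 0.28 SE; adjusted p = 0.00675). In both messages DR pools 1 to 5 lay below all AL pools and DR pool 6 lay among them. CG42374/Mettl5, with a methyltransferase of ribosomal RNA, ran from 11.93 through 12.17 to 12.31 in AL and from 10.65 through 10.99 to 11.87 in DR, and fell 2.05-fold with no overlap (-1.04 ± 0.19 SE; adjusted p = 0.00166). The message moi/Tgs1 carries moi, a protein of the telomere cap, and Tgs1, which trimethylates the cap of small nuclear RNAs, and it fell by 0.57 (SE 0.16; adjusted p = 0.0101). It was at -0.21 with cyclic loess (adjusted p = 0.0844), and its probe changes ran from -1.44 to 0.42. Pbp49/CG42516, with a factor for small nuclear RNA genes, and Polr3K/Tcs1, with a subunit of RNA polymerase III, did not pass (-0.04 and 0.05).

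The next messages carry factors of protein modification, vesicle traffic and cell division, grouped by known role and not by a test. CG42455/vnc carries vnc, an N-terminal acetyltransferase subunit whose mutant has variable numbers of nurse cells. It ran from 11.68 through 11.98 to 12.14 in AL and from 10.60 through 10.81 to 11.46 in DR. No DR pool reached the AL pools, and the fall was 2.00-fold (-0.996 ± 0.155 SE, n = 6 per food; adjusted p = 0.000608). It was -0.64 with cyclic loess (adjusted p = 0.000206) and -0.52 with the gap covariate (adjusted p = 0.0054), so it passed under both. Dpm2/CG12016, with a subunit of the enzyme that makes dolichol phosphate mannose, fell by 0.47 with no overlap (SE 0.11; adjusted p = 0.00424), and was at -0.10 with cyclic loess (adjusted p = 0.241). Gint3/CG42306 fell by 0.39 (SE 0.12; adjusted p = 0.018), again with no overlap, and CG7071/Muted, with a subunit of the BLOC-1 complex of endosome traffic, by 0.36 (SE 0.11; adjusted p = 0.0146). Both of these calls were lost with cyclic loess (-0.05 and -0.02) and with quantile normalization over all arrays. Probe changes of CG7071/Muted ran from -0.93 to 0.48. The message lmgA/lmgB, with a subunit of the anaphase-promoting complex, passed barely (-0.37 ± 0.15 SE; adjusted p = 0.0481) and kept its call under 3 of the 12 removals of 1 pool, those of AL pool 4, DR pool 5 and DR pool 6. The messages with PIG-M and PIG-P, which act in the making of GPI anchors, did not pass (-0.07 and -0.02).

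Enzymes and mitochondrial proteins are carried by 5 of the messages, of which 2 passed as lower. They lie in deciles 6 to 10, where 34.6% to 59.5% of all transcripts passed as lower. Mocs2A/Mocs2B carries both subunits of molybdopterin synthase, which makes the cofactor of enzymes such as xanthine dehydrogenase. It ran from 10.99 through 11.37 to 11.45 in AL and from 9.82 through 10.17 to 11.29 in DR. DR pool 6 alone overlapped the AL pools, and the fall was 1.90-fold (-0.93 ± 0.24 SE; adjusted p = 0.00669). CG42496/Ppcdc, with an enzyme of coenzyme A synthesis, was lower by 0.34 (SE 0.12; adjusted p = 0.0269) and lost its call on leaving out AL pool 2, DR pool 1, DR pool 2 or DR pool 3, with later probes, with median polish and with either other scaling, and was at -0.04 with cyclic loess. CG45089/ND-MNLL, with a subunit of respiratory complex I, missed the threshold (-0.30 ± 0.12 SE; adjusted p = 0.0519) and passed without DR pool 5 or 6. CG42497/Tim10, with a chaperone of mitochondrial protein import (-0.13), and Mvk/CG33672, with mevalonate kinase (0.16), did not pass.

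The other lower messages carry reading frames named by CG numbers. CG6191/CG45088 fell 2.19-fold (-1.13 ± 0.25 SE; adjusted p = 0.00356) and CG5116/CG42488 fell 1.43-fold (-0.52 ± 0.09 SE; adjusted p = 0.00105), both with no overlap of the pools. CG5116/CG42488 was at -0.14 with cyclic loess (adjusted p = 0.128), and its probe changes ran from -1.34 to 0.27. CG33995/CG44001/CG44000 fell by 0.99 (SE 0.22), CG30100/CG42372 by 0.82 (SE 0.21) and CG45085/CG8026 by 0.45 (SE 0.16), with DR pool 6 within the AL range in each. The call of CG45085/CG8026 was lost on leaving out the same single pools as for sle, with later probes, with the position slope as a covariate and with either other scaling. CG42375/CG9288 (-0.14) and CG32573/CG42512 (-0.16) did not pass, and the latter, the dimmest of the 28, was at -0.60 with cyclic loess (adjusted p = 0.0134). It was above background in all 6 AL pools and in 5 of the 6 DR pools, whereas the other 27 messages were above it in all 12.

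**Figure D4:**
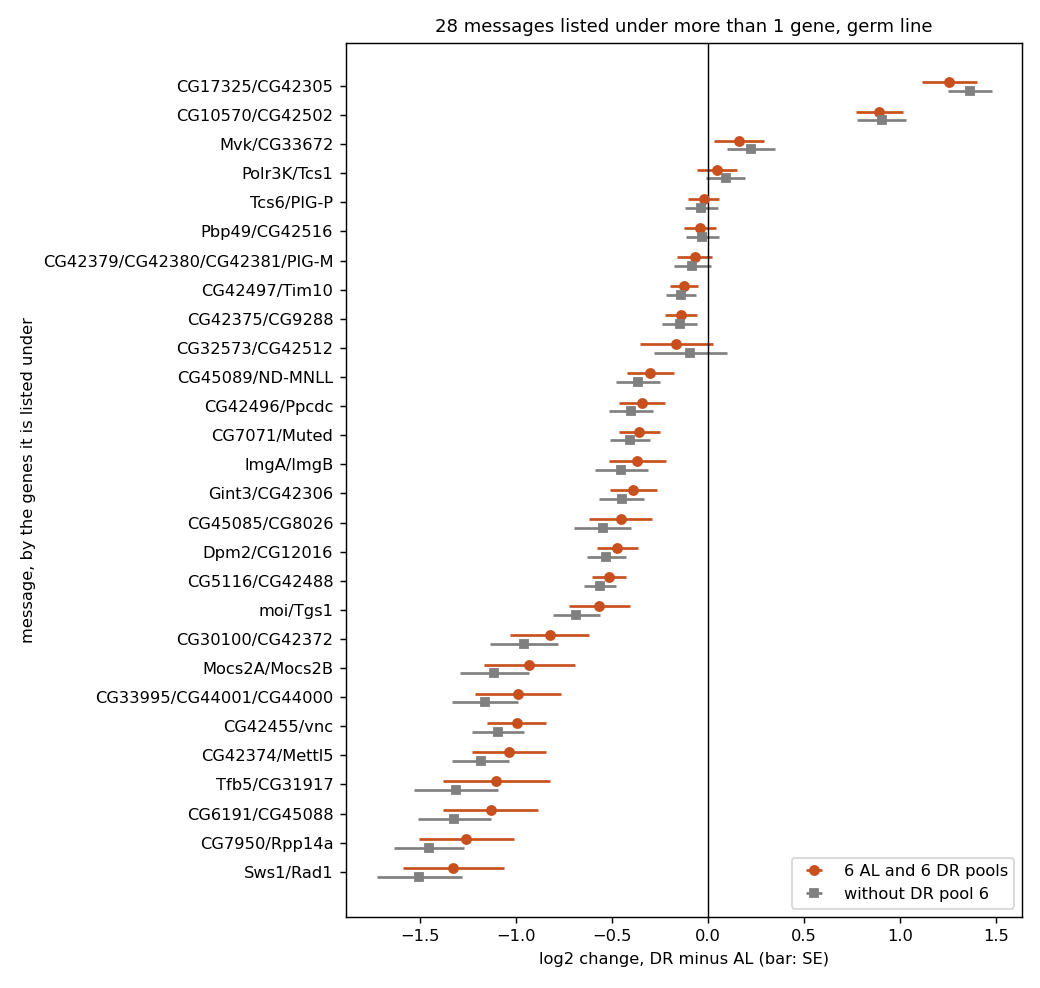
Log2 change (DR minus AL, horizontal axis) with its SE for the 28 messages listed under more than 1 gene (vertical axis), from all 12 pools (circles) and without DR pool 6 (squares). The changes run from -1.33 (Sws1/Rad1) to 1.26 (CG17325/CG42305), and the 2 messages that rose stand apart from the rest.

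The gene table pairs 16593 of the 16637 transcripts with no gene, and the largest changes lay among these. The lack of a name here is a limit of that table and says nothing about the gene. FBtr0087854 ran from 10.03 through 10.31 to 10.36 in AL and from 12.74 through 12.95 to 13.14 in DR. The 6 DR pools were close together and far above the AL pools, DR pool 6 included, and the rise was 6.57-fold (2.71 ± 0.11 SE, n = 6 per food; adjusted p = 3.23e-08). FBtr0076894 ran from 8.31 through 8.63 to 8.81 in AL and from 9.30 through 10.58 to 11.42 in DR. It rose 3.79-fold (1.92 ± 0.30 SE; adjusted p = 0.000667), with DR pool 6 the highest and DR pool 1 the lowest. The DR pool with the smallest median difference from the AL mean over all transcripts was thus here the farthest from the AL pools. FBtr0089324 ran from 13.79 through 14.32 to 14.58 in AL and from 9.55 through 10.39 to 11.83 in DR, a 13.0-fold fall (-3.70 ± 0.38 SE; adjusted p = 3.33e-05). FBtr0089326 ran from 13.30 through 13.92 to 14.32 in AL and from 9.30 through 10.11 to 11.30 in DR, a 12.7-fold fall (-3.66 ± 0.34 SE; adjusted p = 1.89e-05). In both falling transcripts DR pools 4 to 6 lay below DR pools 1 to 3, and no DR pool reached the AL pools. These 4 were picked as the largest changes among unnamed transcripts called with and without DR pool 6. The choice also required non-overlapping pools and a level above background in every pool of the higher food. Those points were therefore fixed by the choice. All 4 were above background in the pools of the other food as well. All 8 probes of each moved the same way, and all 4 calls held under the other alternative fits that were run.

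Most called transcripts had all their probes on the side of the mean change. Of the transcripts with 8 probes, all 8 lay on the side of the mean change in 63.5% of those called higher, 61.5% of those called lower and 21.7% of those not called. That mean comes from the same probes and calls favour a large mean, so part of the higher share among called transcripts is built in. From 80.9% (DR pool 6) to 99.4% (DR pool 1) of transcripts lay above background per pool. A cut that most transcripts pass can hardly show a transcript going off. In all 12 pools 13138 transcripts were above background, and 89 were in none. None was above it in all AL pools and in no DR pool, and 7 were above it in all DR pools and in no AL pool (24 without DR pool 6). The number above background per pool was 15198 ± 753 (SD, n = 6) in AL and 15876 ± 1209 (SD, n = 6) in DR, which missed the threshold (adjusted p = 0.327 by the exact test). DR pool 6 had 13453, and the mean of the other 5 DR pools was 16360 ± 257 (SD, n = 5), which passed (adjusted p = 0.013 by the exact test). With the 99th percentile of the control probes as the cut, the mean number over all pools was higher in DR by 2153 (exact permutation test, unadjusted p = 0.0671).

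The diet change in germ line was set against the mean diet change of the other 6 tissues (fat body, gut, heart, muscle, neuron and tubule) in a model of all 82 arrays. The difference passed for 6627 transcripts (39.8%), with the germ line change above the mean of the others in 2485 (14.9%) and below it in 4142 (24.9%). Of those above, 1274 were called higher in germ line, 253 lower and 958 neither, and of those below, 2815 were called lower, 206 higher and 1121 neither. The same germ line arrays enter both the difference and the call, so part of this match is built in. Differences of at least 2-fold numbered 218 above and 282 below. This model assumes 1 spread for all groups although the germ line DR pools vary most of the 14 groups (they had the lowest weight, 0.289), and with 1 weight per group 3983 transcripts passed. Leaving out DR pool 6 gave 9362 (56.3%), with 4205 above (25.3%) and 5157 below (31.0%).

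Across transcripts, the germ line change was correlated with that in muscle at 0.79, heart at 0.75, neuron at 0.51, gut at 0.45, tubule at 0.41 and fat body at 0.29. These are descriptions over 16637 transcripts that share probes, signal range and array design, and the dependence on signal described above enters them. Of the 4185 germ line transcripts higher in DR, 70.1% were also called higher in heart and 64.0% in muscle, where 31.4% and 29.1% of all transcripts were called higher, and they made up 56.1% and 55.3% of the higher calls in these tissues. In fat body 31.7% were called higher, against 24.4% of all transcripts, and they made up 32.7% of the higher calls there. Of the 5562 lower ones, 72.0% were called lower in heart, 67.2% in neuron, 62.9% in muscle and 34.9% in fat body. Of all transcripts, 35.3% were called lower in heart, 33.3% in neuron, 27.3% in muscle and 20.5% in fat body. A further 20.4% of the 5562 were called higher in fat body. Calls in either direction took up 66.7% of transcripts in heart, 59.5% in neuron, 56.4% in muscle, 44.9% in fat body, 42.6% in tubule and 39.4% in gut. No other tissue shared the direction for 287 of the higher and 433 of the lower transcripts, and all 6 shared it for 522 and 749. The like counts over all transcripts were not made, so these numbers cannot be read as more or fewer than background. An absent call in a tissue is not a test of difference, which the contrast above gives.

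Among the 14 named genes the difference from the mean of the other tissues passed in 3, with the germ line change below that mean in each, where 24.9% of all transcripts passed as below. His4r changed by -0.52 in germ line while its values elsewhere lay between -0.14 (muscle) and 0.31 (fat body) (difference -0.59 ± 0.10 SE; adjusted p = 1.54e-06). The gene alpha-Spec was higher in 5 of the other 6 tissues by 0.45 to 0.84, with -0.08 in muscle and -0.16 in germ line (difference -0.71 ± 0.16 SE; adjusted p = 0.000228). The gene kis had changes from -0.41 in neuron to 0.12 in fat body, and -0.47 in germ line (difference -0.39 ± 0.11 SE; adjusted p = 0.00382). These 3 differences passed without each germ line pool in turn, with 1 weight per group and with quantile normalization over all arrays. The difference from the other tissues was not fitted with the gap covariate. With that covariate the germ line changes themselves were -0.03 for His4r, -0.03 for kis and 0.44 for alpha-Spec, and none of them passed. HDAC3, with values below 0 in every tissue, missed the threshold for a difference (-0.24 ± 0.11 SE; adjusted p = 0.0726). It passed on leaving out AL pool 3, AL pool 4, DR pool 5 or DR pool 6, and after joint quantile normalization (-0.53, adjusted p = 4.71e-05). LanA was at 0.50 in germ line, at 1.39 in fat body and at -1.12 in neuron, and its difference from the mean of the others was 0.15 ± 0.26 SE (adjusted p = 0.651). For mio, at 0.82 in fat body and -0.06 in germ line, the difference from the mean of the others was -0.15 ± 0.13 SE (adjusted p = 0.369).

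**Figure D5:**
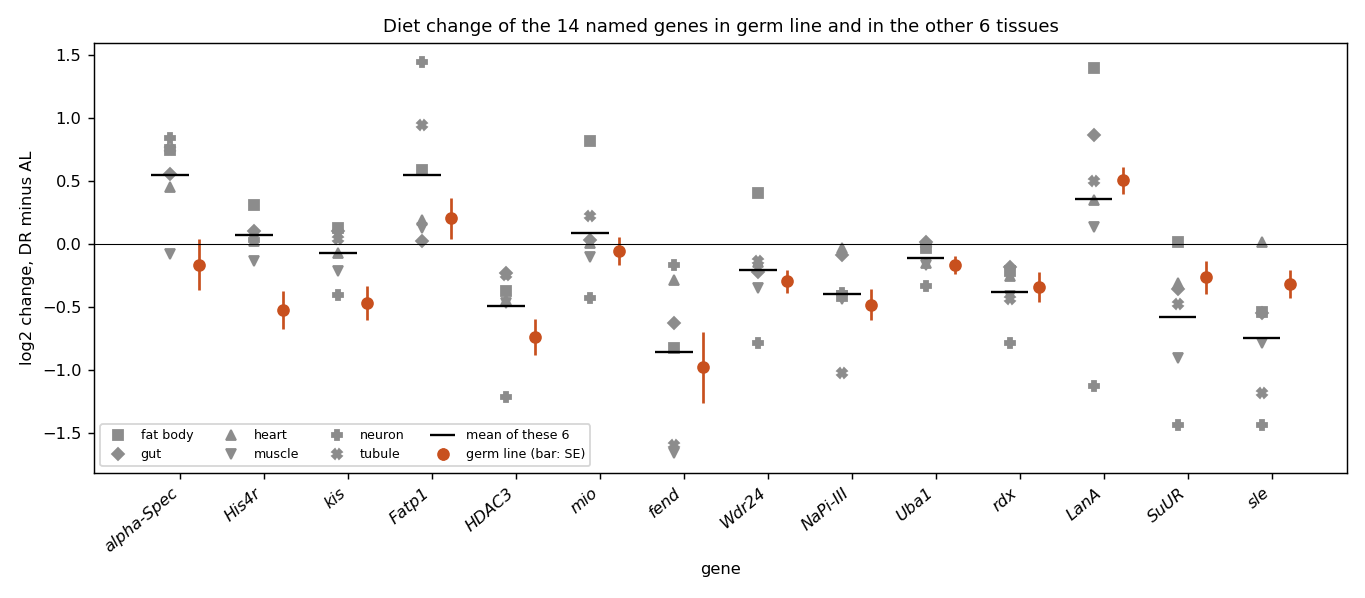
Log2 change (DR minus AL, vertical axis) of the 14 named genes in germ line (orange, with SE) and in the other 6 tissues (grey symbols, with the mean as a black line). The genes are ordered by the difference between germ line and that mean, which is -0.71 for alpha-Spec, -0.59 for His4r and -0.39 for kis.

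Of the 28 messages listed under several genes, the difference passed with the germ line change above the mean of the others in 3 and below it in 14, and 11 did not pass. Of all transcripts, 14.9% passed as above and 24.9% as below. CG7950/Rpp14a was at -1.26 in germ line and between -1.02 (neuron) and 0.25 (gut) in the other tissues (difference -0.89 ± 0.19 SE; adjusted p = 0.000107), and its difference was -1.98 after joint quantile normalization. CG5116/CG42488 was at -0.52 in germ line and at a mean of 0.02 elsewhere (difference -0.53 ± 0.08 SE; adjusted p = 5.18e-08), and Gint3/CG42306 at -0.39 and 0.16 (difference -0.55 ± 0.10 SE; adjusted p = 4.65e-06). These means join unlike tissues. CG5116/CG42488 ran elsewhere from -0.54 in neuron to 0.32 in muscle, and Gint3/CG42306 from -0.15 in fat body to 0.73 in neuron. Mvk/CG33672, with mevalonate kinase, was at 0.16 in germ line and at a mean of -0.32 elsewhere, with -1.17 in neuron (difference 0.48 ± 0.15 SE; adjusted p = 0.00937). CG17325/CG42305 and CG10570/CG42502 were called higher in all 6 other tissues as well, by 1.26 to 2.66 and by 0.87 to 1.54, and their differences from the mean did not pass (adjusted p = 0.103 and 0.0505). The large falls of FBtr0089324 and FBtr0089326 were smaller in germ line than elsewhere, where their means were -6.40 and -6.31 (differences 2.70 ± 0.33 SE and 2.64 ± 0.29 SE; adjusted p = 8.46e-10 and 4.84e-11). After joint quantile normalization of all arrays these differences were 1.38 and 1.23 and still passed. FBtr0087854 was at 0.14 in fat body and 4.20 in neuron, and its rise in germ line lay above the mean of the others by 0.67 ± 0.12 SE (adjusted p = 3.77e-06), or by 1.67 after joint quantile normalization.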

How the data were processed

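RNA pulled down with tagged ribosomes was amplified, labelled with Cy3 and hybridised to single-colour NimbleGen arrays, with pull-down, amplification and labelling randomised over groups, per the labels' protocols. The authors deposited linear-scale intensities, 137098 probes per array, of which 4100 are random-sequence control probes. Within germ line the sorted log2 intensities of the deposited arrays differ by at most 0.031, so the values are quantile normalised within the tissue. How background was corrected, and which annotation release was used, the sources used here do not give.

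Intensities were taken to log2 and averaged over the probes of a transcript (8 for 16616 of 16637). No sample column lay outside the design. The 12 germ line arrays were fitted with limma 3.58.1 (R 4.3.3), two-sided, and p-values were adjusted by the Benjamini-Hochberg method over all 16637 transcripts, with calls below 0.05. Background is the 95th percentile of the control probes. The precision is limited by the number of arrays. Pool measures had exact permutation tests, whose smallest possible p is 0.00216. The difference from the other tissues came from 1 limma model of 14 groups. Figures used matplotlib 3.10.9.

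Gene names come from a RefSeq table (assembly Release 6 plus ISO1 MT, names alone), which pairs 16 transcripts with 1 gene, 28 with several and 16593 with none. All 14 single-gene transcripts whose symbol is more than a CG number are described. Up to 2 unnamed transcripts per direction were printed, by size of change among those with non-overlapping pools. They also had to be called with and without DR pool 6 and above background in every pool of the higher food. The members, lists and tests were chosen with earlier results of these data known, and the list of 28 messages, the gap covariate and the probe variance and control probe measures were added after the files were seen. The fits were tested on simulated data. The smallest median absolute log2 difference between 2 pools of 1 food was 0.10, so no array was a copy.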

Additional observations from a re-analysis of the deposited data

Results flagged for a closer look

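By Dixon's criterion, DR pool 6 lay apart from the other 5 DR pools in the number of transcripts above background (13453) and in the median of the control probes (6.39, against a DR mean of 5.58 without it). Wdr24 in AL pool 5 (12.41) and Gint3/CG42306 in AL pool 3 (12.65) lay apart from the other AL pools. These were 4 of 104 groups of 6 pools tested, and chance flags about 1 in 20.

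The diet change differed between germ line and the mean of the other 6 tissues in 23 of the described items (limma, adjusted p below 0.05). The same test passed for 39.8% of all transcripts. The mean joins unlike tissues, and some items below it fell more in a single other tissue than in germ line. CG42455/vnc was at -0.996 in germ line and ran elsewhere from -1.34 in neuron to 0.03 in gut. CG42374/Mettl5 was at -1.04 and ran from -1.24 in neuron to -0.08 in gut. Mocs2A/Mocs2B was at -0.93 and ran from -1.38 in neuron to 0.21 in fat body. The differences were -0.71 for alpha-Spec, -0.59 for His4r and -0.39 for kis. Among the messages listed under several genes, those below were CG7950/Rpp14a (-0.89), CG33995/CG44001/CG44000 (-0.78), CG6191/CG45088 (-0.74), CG30100/CG42372 (-0.60), Gint3/CG42306 (-0.55), CG5116/CG42488 (-0.53), Mocs2A/Mocs2B (-0.49), CG42374/Mettl5 (-0.48), CG42455/vnc (-0.46), CG7071/Muted (-0.37), CG45089/ND-MNLL (-0.35), Dpm2/CG12016 (-0.33), CG45085/CG8026 (-0.32) and CG42496/Ppcdc (-0.20). Those above were Mvk/CG33672 (0.48), Tcs6/PIG-P (0.43) and Pbp49/CG42516 (0.29). The unnamed FBtr0087854 (0.67), FBtr0089324 (2.70) and FBtr0089326 (2.64) also lay above, and the unnamed items were picked for the size of their germ line change. Of the 12 fits with 1 germ line pool left out, the difference passed in 2 for CG45089/ND-MNLL, in 3 for Pbp49/CG42516, in 4 for Mocs2A/Mocs2B, in 5 for CG42496/Ppcdc, in 10 for CG42455/vnc and in 11 for CG45085/CG8026. With 1 weight per group it did not pass for CG45089/ND-MNLL, CG42496/Ppcdc, CG42455/vnc, Mocs2A/Mocs2B, Tcs6/PIG-P (adjusted p = 0.0632) and Pbp49/CG42516, and with quantile normalization over all arrays it did not pass for CG45089/ND-MNLL, CG42496/Ppcdc and CG45085/CG8026.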

How the results depend on the processing

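The number of calls stayed within 1.5 times of 9747 with the fit on all 82 arrays (11807), cyclic loess (7102), quantile normalization over all arrays (7878), later probes (8976), median polish (9238), dim transcripts left out (9637) and 3 further settings. With the gap covariate it was 4584, with 2507 higher and 2077 lower, so that 54.7% of calls were higher in place of 42.9%. That fit also turned fend (0.036), CG42496/Ppcdc (0.0017), lmgA/lmgB (0.10), sle (0.0035) and CG45085/CG8026 (0.087), none of them past the threshold there. Cyclic loess turned Wdr24 (0.035) and the difference in the bright to dim gap (0.11), which it levels by construction. Quantile normalization over all arrays turned the difference of Sws1/Rad1 from the other tissues (-0.76). Without DR pool 6 the difference in transcripts above background passed (1162). The count of differences from the other tissues was 3983 with 1 weight per group.

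Leaving out 1 pool gave 7761 to 12600 calls (3065 to 6099 higher, 4696 to 6501 lower), 4748 to 9362 differences from other tissues, a gap difference of -0.72 to -0.51, a difference in transcripts above background of 448 to 1162 and a slope difference of -0.082 to -0.039. Where a cause is not stated, the cause was not tested.

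Pool numbers are shared by the foods. The deviations of same-numbered pools correlated from -0.44 to 0.74, with 4 of 6 pairs over 0.1 and 2 of 6 AL pools closest to their own number. A pairing by number was therefore not shown, and 6 pairs are too few to settle it. With the number as a replicate block 9629 transcripts passed (4254 higher, 5375 lower), without those of CG42496/Ppcdc (adjusted p = 0.0515) and lmgA/lmgB (adjusted p = 0.0599), and 7583 differed from the other tissues. The signal over background limits the dim transcripts, whose level the control probes overlap.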
